A study of Bos taurus with 2 samples.

Results

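Fully methylated CpG islands in bull sperm were defined from the CpG positions and read counts alone. An island was an unbroken run of 20 to 99 listed CpGs on the autosomes in which neighbours lay at most 50 bp apart. Its methylation level in a library was the share of methylated reads, summed over its CpGs. A read was counted at each CpG it covers, so summed reads exceed the number of separate reads. An island was taken as fully methylated when it had at least 50 reads and a level of at least 80% in both libraries, with a mean of under 100 reads per CpG. This held for 28214 of the 70535 runs of that size. The levels in the islands chose them, so those levels and the differences between them are descriptions. The comparisons of the libraries rest on CpGs outside the islands, whose counts did not enter the choice. CpGs near a neighbouring island can still share fragments with it.

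CpG islands are stretches in which the CpG dinucleotide, lost elsewhere through mutation of methylated cytosines, remains common. Many of them overlap gene promoters and stay unmethylated in most cell types, the germ line included, while most other CpGs of the sperm genome carry methylation. Islands that are methylated in sperm have long been known, among them control regions of paternally imprinted genes and stretches inside genes or repeats.

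The study profiled sperm DNA of Bull1 and Bull2, monozygotic twin Holstein bulls that share a genotype but differed in semen quality. Frozen semen collected at the same age and within a week was used for both, and no treatment was applied. The method was whole-genome bisulfite sequencing (WGBS), in which bisulfite converts unmethylated cytosines so that only methylated ones are still read as cytosine. Each bull had 1 library, so no spread between replicates exists, and every comparison below is between libraries. The labelled cell type could not be checked against marker genes, and the share of other cells in the semen was not measured.

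Both libraries listed the same 27203217 CpGs, with a mean of 20.01 reads per CpG in Bull1 and 18.4 in Bull2. The study describes Bull2 as the more deeply sequenced and Bull1 as the more methylated, while the file labelled Bull1 holds both more reads and the higher level. Over the autosomes 75% of reads were methylated in Bull1 and 70.8% in Bull2. Of the 70535 runs, 2373 had too few reads, among them 275 at 80% or more in both libraries. Another 2573 were too deep, 10 of them at that level. The remaining 65589 islands formed the comparison set.

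Fully methylated islands made up 43.0% of the comparison set (exact Clopper-Pearson 95% interval 42.6 to 43.4%, counting error only). Unmethylated islands, at 20% or less in both libraries, numbered 27557 or 42.0%. Only 9818 islands (14.97%) were intermediate, which here means any other combination of levels. Of these, 2029 reached 80% in Bull1 only and 753 in Bull2 only. In Bull1 19423 islands lay at 90% or more and 10820 between 80 and 90%, whereas 626 lay between 40 and 50%. In Bull2 11348 lay at 90% or more and 17619 between 80 and 90%. The plot of levels shows islands at both ends of the scale and few between.

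**Figure D1:**
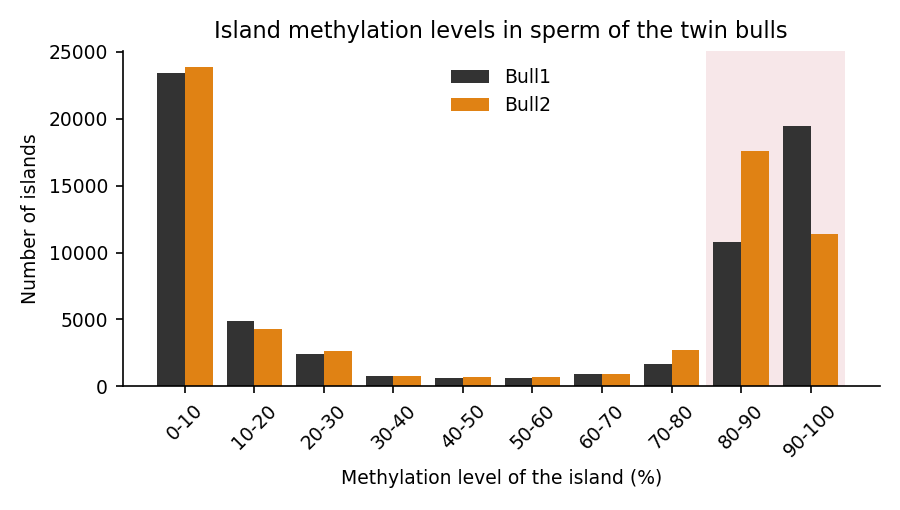
Number of islands (vertical axis) by methylation level in 10-point classes (horizontal axis, %) for the 65589 islands of the comparison set, with dark bars for Bull1 and orange bars for Bull2. The shaded range marks 80% and above, where Bull1 has 19423 islands at 90% or more and Bull2 has 11348.

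A typical fully methylated island was short. The median number of CpGs was 26, with quartiles of 22 and 35, and the median length was 424 bp, from 116 to 1887 bp. Together the islands held 866221 CpGs, which is 3.33% of the autosomal CpGs. Coverage averaged 8.89 reads per CpG in Bull1 and 9.43 in Bull2, against 20.3 and 18.7 over the autosomes. The median island therefore rested on 245 reads in Bull1 and 256 in Bull2.

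Pooled over all fully methylated islands, the level was 91.2% in Bull1 and 88.6% in Bull2, higher by 2.57 points in Bull1. The median island level was 91.7% in Bull1 and 88.9% in Bull2, and the SD across islands was 3.85 and 3.92 points. Full methylation thus rarely meant every read. Among CpGs of these islands with at least 5 reads in both libraries, 44.9% were read as methylated throughout in Bull1 and 33.6% in Bull2, and 90.6% and 85.1% were at 80% or more. The level, which the rule held at 80% or more, was similar across sizes of island. Islands of 20 to 24 CpGs were at 91.2% in Bull1 and 88.6% in Bull2, and those of 60 to 99 CpGs were at 91.3% and 88.7%, although their coverage fell from 10.1 to 7.04 reads per CpG in Bull1.

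Methylation was nearly even from edge to centre. The outermost CpGs of the islands were at 90.2% in Bull1 and 87.1% in Bull2, and the CpG in position 10 from the edge was at 91.3% and 89.0%. Single CpGs at 20% or less inside these islands were rare but mostly shared. Of 216783 CpGs with at least 10 reads in both libraries, 797 were at 20% or less in Bull1 and 803 in Bull2, and 719 were so in both. These shared CpGs made up 90.2% of those in Bull1 and 89.5% of those in Bull2. Between 20 and 40% the shared CpGs were 32.3% of those in Bull1 and 29.3% of those in Bull2. Between 40 and 60% they were 41.1% and 30.9%. Between 60 and 80% the shared part was smallest, with 2140 shared of 12375 CpGs in Bull1 (17.3%) and of 24499 in Bull2 (8.74%). These lists held 5.71% of the 216783 CpGs in Bull1 and 11.3% in Bull2, against 0.368% and 0.370% at 20% or less. The shared parts were not adjusted for these sizes. At least 1 CpG at 20% or less in both libraries was found in 642 islands, or 2.28%. Whether the bulls' own sequence holds a CpG at these positions was not tested.

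Several islands reached the upper size limit of 99 CpGs, and the first 5 by position are described here. The first lies on chromosome 3 from 118821165 to 118822424 (UMD3.1). It was methylated in 276 of 318 reads in Bull1, 86.8% (95% interval 82.6 to 90.3%), and in 725 of 836 reads in Bull2, 86.7% (84.2 to 88.9%). Intervals of levels, here and below, treat counts at neighbouring CpGs as independent, so they are too narrow. Another on chromosome 3 from 121286843 to 121287919 was at 96.1% in Bull1 and 86.3% in Bull2. On chromosome 6 an island from 108191117 to 108192557 was at 91.9% and 83.2%, while another from 107238953 to 107240500 was at 88.9% and 89.8%. An island on chromosome 5 from 117844702 to 117846052 was at 83.6% in both libraries and held a CpG that was at 0 in both. Levels of these 5 islands ran from 83.2 to 96.1%, and both equal and unequal levels occurred among them.

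CpG density was lower in fully methylated than in unmethylated islands. The median was 6.54 CpGs per 100 bp against 8.62 in unmethylated islands and 6.82 in intermediate ones. The rule used the density only through the gap limit and the number of CpGs. Of islands with 5 to 6 CpGs per 100 bp 68.7% were fully methylated, and of those with 8 to 10 CpGs 23.9%. At 12 to 15 CpGs the share was 4.53%, and at 15 or more 15 islands remained, or 4.97%. The number of CpGs gave the same order, with 58.2% fully methylated among islands of 20 to 24 CpGs and 8.72% among those of 80 to 99. Neighbouring CpGs in fully methylated islands were a median of 12 bp apart against 8 bp in unmethylated ones. Directly adjoining CpGs, 2 bp apart, made up 5.06% of the gaps against 10.1%.

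**Figure D2:**
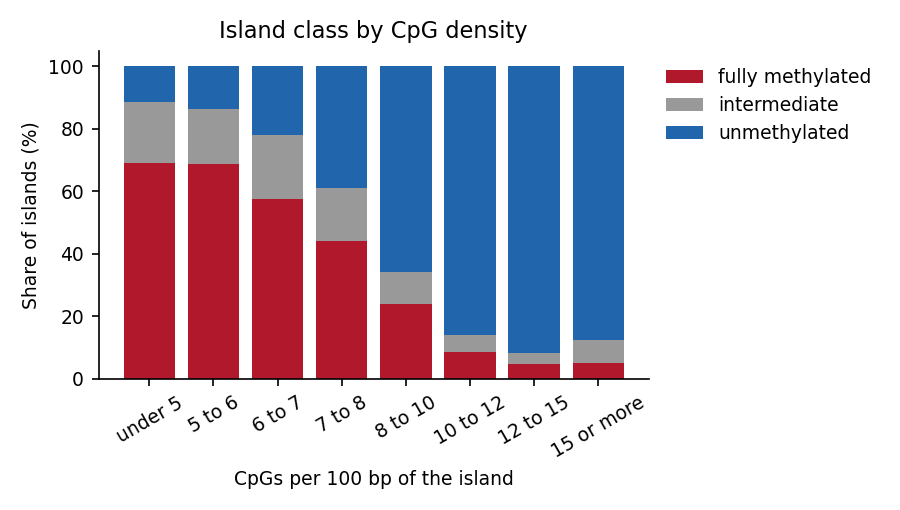
Share of islands in each class (vertical axis, %) by CpG density (horizontal axis, CpGs per 100 bp of the island) in the comparison set of 65589 islands. The fully methylated share, in red, falls from 69.1% under 5 CpGs to 4.53% at 12 to 15 CpGs.

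Dense islands with full methylation did exist. The densest lies on chromosome 1 from 155761367 to 155761611, with 66 CpGs in 246 bp, or 26.8 per 100 bp. It had 174 methylated reads of 198 in Bull1, 87.9% (82.5 to 92.1%), and 85 of 91 in Bull2, 93.4% (86.2 to 97.5%). Its depth was low, at 3 and 1.38 reads per CpG. The next in density, on chromosome 4 from 94480430 to 94480544, held 22 CpGs in 116 bp and was better covered, at 11.05 and 10.1 reads per CpG. It was at 96.3% in Bull1 (234 of 243 reads) and 89.2% in Bull2 (199 of 223 reads). Pooled levels in the class of 15 or more CpGs per 100 bp were 92.8% in Bull1 and 89.0% in Bull2, against 91.5% and 89.1% at 8 to 10 CpGs and 90.9% and 88.2% at 5 to 6.

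Fully methylated islands were concentrated at one end of the chromosomes. Bovine autosomes are acrocentric, with the centromere at the end where positions start. The last 10% of the length of each autosome, away from the centromere, held 17194 fully methylated islands, or 60.9% of them. It held 36.4% of intermediate islands, 17.3% of unmethylated islands and 18.0% of all listed CpGs. Of all islands there, 67.3% were fully methylated, while the share was 14.7% just before the middle of the chromosomes. These shares are descriptions, since islands on a chromosome are not independent.

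**Figure D3:**
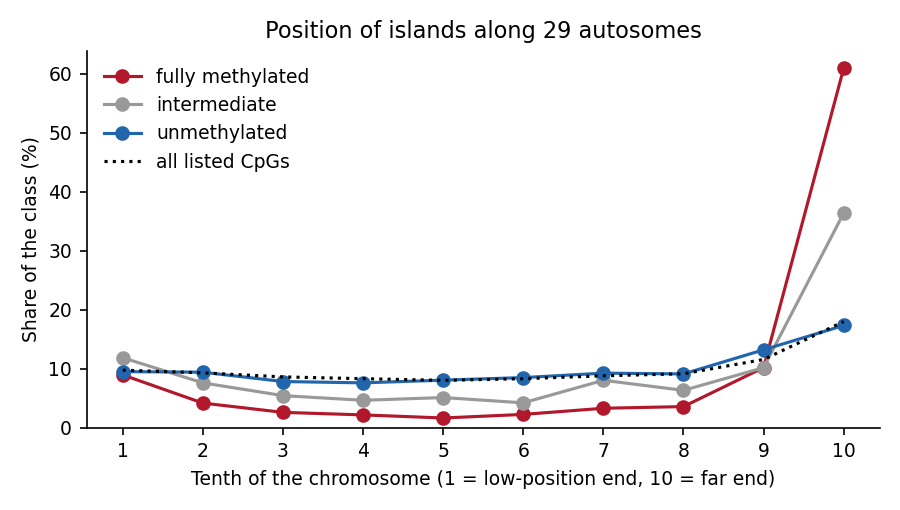
Share of each island class (vertical axis, %) along the autosomes in 10 steps of equal length (horizontal axis, 1 is the end where positions start), with all listed CpGs as a dotted line. Fully methylated islands, in red, reach 60.9% in the last step, where unmethylated islands are at 17.3% and all CpGs at 18.0%.

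Counted from the far end, the density of fully methylated islands fell steeply. There were 166 per Mb in the last 1 Mb, 146 per Mb between 1 and 2 Mb from the end and 63.3 per Mb between 2 and 5 Mb. Between 20 and 40 Mb there were 3.77 per Mb. Unmethylated islands fell less, from 30.7 to 9.98 per Mb over the same distances. The methylation level did not follow this gradient. It was 91.2% in Bull1 and 88.6% in Bull2 both in the last 1 Mb and beyond 40 Mb.

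The concentration at the far end was found on most chromosomes. The share in the last 10% of the length was above that of unmethylated islands on 26 of 29 autosomes and above 50% on 18. It was highest on chromosome 9, at 92.9%. The 3 exceptions to the comparison with unmethylated islands were chromosomes 7, 14 and 18, with 6.16%, 5.64% and 10.8%. On chromosome 14 the first 10% of the length held 581 of the 745 fully methylated islands instead. The first 10% also held more of them than the last on chromosomes 7 (225 against 43) and 18 (187 against 142). So it did on chromosomes 24 (261 against 170) and 27 (72 against 70). The number per Mb ran from 3.08 on chromosome 1, the longest, to 49.3 on chromosome 25, with a median of 9.66.

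Fully methylated islands also lay close to one another. The nearest fully methylated neighbour was a median of 1156 bp away, and 17039 islands (60.4%) had one within 2 kb. The nearest unmethylated island was a median of 18542 bp away, and 1401 islands (4.97%) had one within 2 kb. Only 59 had one within 300 bp. Unmethylated islands also lay close to their own class, at a median of 1873 bp, with 50.6% having one within 2 kb. Within 300 bp the share was 31.9%, against 25.1% of fully methylated islands near their own class. Joining islands up to 2000 bp apart gave 16085 groups, of which 11175 were single islands and 930 held 5 or more.

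The largest group held 39 islands with 1740 CpGs on chromosome 22 from 60108205 to 60153261, 1.28 Mb from the end. Its islands ranged from 82.1 to 99.2% in Bull1, with a median of 91.9%, and from 81.6 to 96.2% in Bull2, with a median of 90.8%. A single intermediate island and no unmethylated one lay among them, and 28 of the 39 were higher in Bull1. The second group held 30 islands on chromosome 11 from 106906296 to 106935644, with pooled levels of 91.9% and 88.7%. Islands more than 10 kb from any other of their class numbered 4797. They were less concentrated at the far end, with 27.4% in the last 10% of the length, and were at 90.7% in Bull1 and 88.1% in Bull2.

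Outside the islands methylation stayed high. The distal flank took CpGs from over 300 bp to 2000 bp beyond the outer CpGs and in no other run of 20 or more. The counts at these CpGs were not used to choose the islands. Fragments of 200 to 300 bp that cover an island do not reach its own flank. They can reach the flank of a neighbouring island, and 60.4% of fully methylated islands had another within 2 kb. Flanks are thus not fully independent of the choice. Flanks of fully methylated islands were at 88.4% in Bull1 and 85.1% in Bull2, with a median of 67 CpGs. Those of unmethylated islands were at 41.0% and 39.04%, and those of intermediate islands at 43.5% and 41.7%. These pooled levels weight deep flanks heavily. The median flank was at 89.99% in Bull1 and 86.4% in Bull2 around fully methylated islands, at 57.1% and 54.7% around unmethylated islands, and at 81.1% and 77.5% around intermediate islands. Of the 28133 fully methylated islands with at least 50 flank reads in both libraries, 25203 (89.6%) had a flank at 80% or more in both. The share was 14.4% around unmethylated and 43.6% around intermediate islands. Autosomal CpGs outside runs of 20 or more were at 80.6% in Bull1 and 76.7% in Bull2.

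The flank level fell slowly with distance. It was 89.8% in Bull1 and 86.7% in Bull2 within 100 bp, and 88.0% and 84.7% at over 1000 to 2000 bp. At over 5000 to 10000 bp it was still 86.1% and 82.9%. Around unmethylated islands it rose over the same distances from 9.05% and 9.94% to 60.2% and 56.8%. In 32.6% of fully methylated islands the flank lay above the island in Bull1, and in 28.97% it did so in Bull2.

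**Figure D4:**
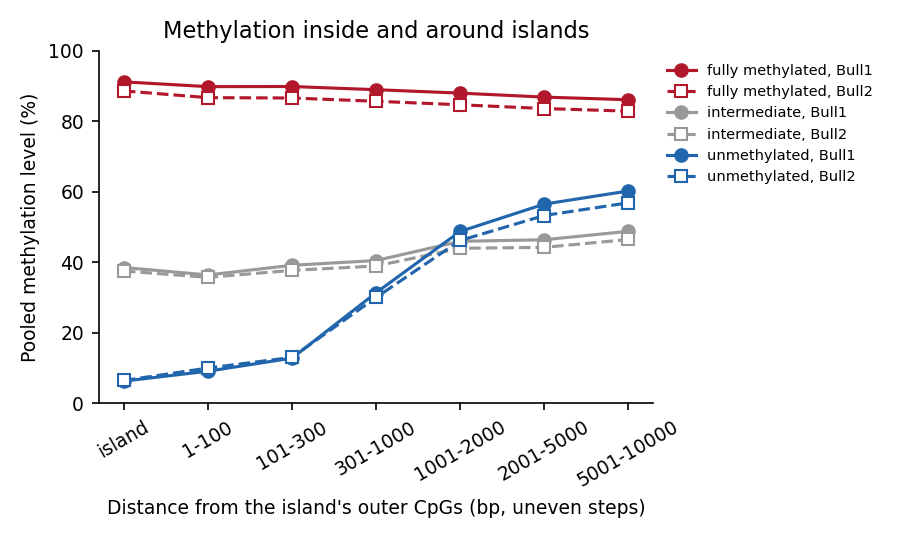
Pooled methylation level (vertical axis, %) in islands and at increasing distance from their outer CpGs (horizontal axis, bp, uneven steps), with filled circles for Bull1 and open squares for Bull2. Around fully methylated islands, in red, the level stays between 91.2% and 86.1% in Bull1 and between 88.6% and 82.9% in Bull2, whereas it rises around unmethylated islands, in blue.

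The flanks were then used to compare the libraries. Bull1 was higher by 3.30 points over all flanks of fully methylated islands, and higher in 24630 of 28133 flanks (87.5%). The pooled difference was 1.80 points in flanks of intermediate islands and 1.99 in those of unmethylated islands. The median difference per flank was 3.37 points around fully methylated islands, 2.57 around intermediate and 1.70 around unmethylated ones. The pooled difference was 3.82 points over autosomal CpGs outside runs of 20 or more and 4.24 over all autosomal CpGs. In points the flanks of fully methylated islands differed by less than these. They also lay at a higher level, and the sets were not compared on another scale such as odds. Flanks of neighbouring islands overlap, and counting each of the 1349014 different CpGs once gave 88.0% against 84.6%, a difference of 3.34 points.

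A two-sided Fisher exact test on the summed flank reads, with Benjamini-Hochberg adjustment over the flanks of all classes, called 32.5% of the 65391 flanks tested, 29.1% as higher in Bull1 and 3.41% as higher in Bull2. Among flanks of fully methylated islands it called 11383 (40.5%), 11169 of them (39.7%) higher in Bull1 and 214 (0.761%) higher in Bull2. Most called differences were small. Of those higher in Bull1 10701 were under 10 points, and 7 were above 20.

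These calls rest on reads that were counted at every CpG they cover, which makes the p-values too small. When flank CpGs were kept at least 300 bp apart, a choice made after seeing the data that leaves a median of 9 CpGs per flank, the test called 39 of 24261 flanks of fully methylated islands (0.161%), against 0.164% of all flanks. All 39 were higher in Bull1, with 0.147% of all flanks called in that direction and 0.0169% in the other. Of the 24261 flanks 19053 (78.5%) were higher in Bull1, against 70.8% of all flanks. A p of at most 0.05 before adjustment was found in 3168 (13.1%), against 11.3% of all flanks. With 1 CpG per flank 0 of 22896 were called by the same test, with 413 (1.80%) at a p of at most 0.05 before adjustment, against 2.21% of all flanks. Thinning left out most of the median of 67 CpGs per flank and their reads. These tests therefore cannot tell how many single flanks differ at the full depth. Most flanks were higher in Bull1.

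Within the islands Bull1 was higher in 19917 (70.6%), Bull2 in 8283 (29.4%), and 14 were equal. The difference had a median of 2.61 points and ran from -19.8 to 18.6, close to the span of 20 points that the rule allows. By chromosome the pooled difference of these chosen levels ran from 2.30 to 3.25 points. More than 10 points separated the libraries in 1684 islands higher in Bull1 and in 270 higher in Bull2. The Fisher exact test on island reads called 15.5% of all islands, 12.1% higher in Bull1 and 3.33% higher in Bull2. It called 5277 fully methylated islands (18.7%), 4677 higher in Bull1 and 600 higher in Bull2. The rule bounded these levels, so nothing is read from these counts, and with 1 CpG per island 0 of 20943 were called. In these islands there were 0.942 reads in Bull1 for each read in Bull2, although Bull1 had more reads across all listed CpGs. The ratio was 0.949 in intermediate and 0.966 in unmethylated islands, and its part in the difference was not tested.

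Of islands in which each library had at least 200 reads, the one most above Bull2 in Bull1 lies on chromosome 23 from 50969216 to 50969520. It was methylated in 326 of 335 reads in Bull1, 97.3% (94.96 to 98.8%), and in 212 of 264 reads in Bull2, 80.3% (74.99 to 84.9%). Bull1 was higher at 16 of its 22 CpGs, Bull2 at 2, and 4 were equal. The flank differed by 2.50 points, 81.5% against 79.02%. On its low-position side 8 CpGs with at least 3 reads in each library were at 0 in both, over 97 reads in Bull1 and 78 in Bull2. The island on chromosome 26 from 49189224 to 49189600 was at 97.0% against 80.1%, and the one on chromosome 7 from 20309085 to 20309757 at 96.3% against 80.2%. Their flanks were higher in Bull1 by 7.002 and 1.94 points. Runs built with gaps of at most 100 bp can reach beyond the islands. The difference of the run holding the island was then 9.63 points on chromosome 23 and 9.20 on chromosome 26. On chromosome 7 the value of 16.1 points was unchanged from the main setting, so it is no further check. With gaps of at most 30 bp the difference was 23.4 points on chromosome 26 and 16.3 on chromosome 7.

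In the opposite direction, the island on chromosome 14 from 4434398 to 4434658 was methylated in 228 of 278 reads of Bull1, 82.0% (77.0 to 86.3%), and in 216 of 223 reads of Bull2, 96.9% (93.6 to 98.7%). Bull2 was higher at 21 of its 22 CpGs, while the flank was higher in Bull1 by 1.87 points. The island on chromosome 29 from 44108032 to 44108644 was at 80.8% and 95.6%, with a flank higher in Bull1 by 5.65 points. The island on chromosome 23 from 51489845 to 51490135 was at 81.4% and 95.5%, with all 22 CpGs higher in Bull2 and a flank higher in Bull1 by 3.37 points. With gaps of at most 100 bp the differences were -1.67 points on chromosome 14, -11.8 on chromosome 29 and -7.97 on chromosome 23, and with gaps of at most 30 bp the difference on chromosome 29 was -23.3. The flanks of these islands did not share their direction, but the islands were chosen for their difference and their reads overlap between CpGs.

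A small number of fully methylated islands had flanks of low or intermediate level. The flank was at 50% or less in both libraries in 105 islands and at 20% or less in 11. Of the 105, 68 (64.8%) had an unmethylated island within 2 kb. Their own levels, which the rule held at 80% or more, were 90.6% in Bull1 and 87.9% in Bull2, near those of all fully methylated islands. The median of their flanks was 39.6% and 34.0%. Pooled over reads these flanks were at 24.7% and 24.9%, and at 29.7% and 28.8% without the deepest of them, on chromosome 14. Islands within 2 kb of an unmethylated island had a median flank level of 80.5% and 78.1%, against 90.1% and 86.6% in the others.

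By the mean of both libraries, and among islands with at least 100 flank reads in each, the lowest flank was that of an island on chromosome 17 from 73839271 to 73839981, with 44 CpGs. The island was at 92.1% in Bull1 (293 of 318 reads) and 89.0% in Bull2 (333 of 374 reads). Its flank had 7 methylated of 117 reads in Bull1, 5.98%, and 8 of 132 in Bull2, 6.06%. An unmethylated island began 1290 bp away. The plot of single CpGs shows that the change was on the far side. CpGs on the low-position side, most of them in other runs and so left out of the flank, were at 89.4% in Bull1 and 85.7% in Bull2, and those on the far side at 12.2% and 10%. An island on chromosome 29 from 50778426 to 50778798 was at 93.8% and 94.4%, with a flank at 8.96% and 3.38%. An island on chromosome 14 from 2190708 to 2191688 was at 98.3% and 86.4%, with a flank at 7.27% and 8.39%. That flank held 34489 and 27368 reads at 51 CpGs, far above the mean coverage.

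**Figure D5:**
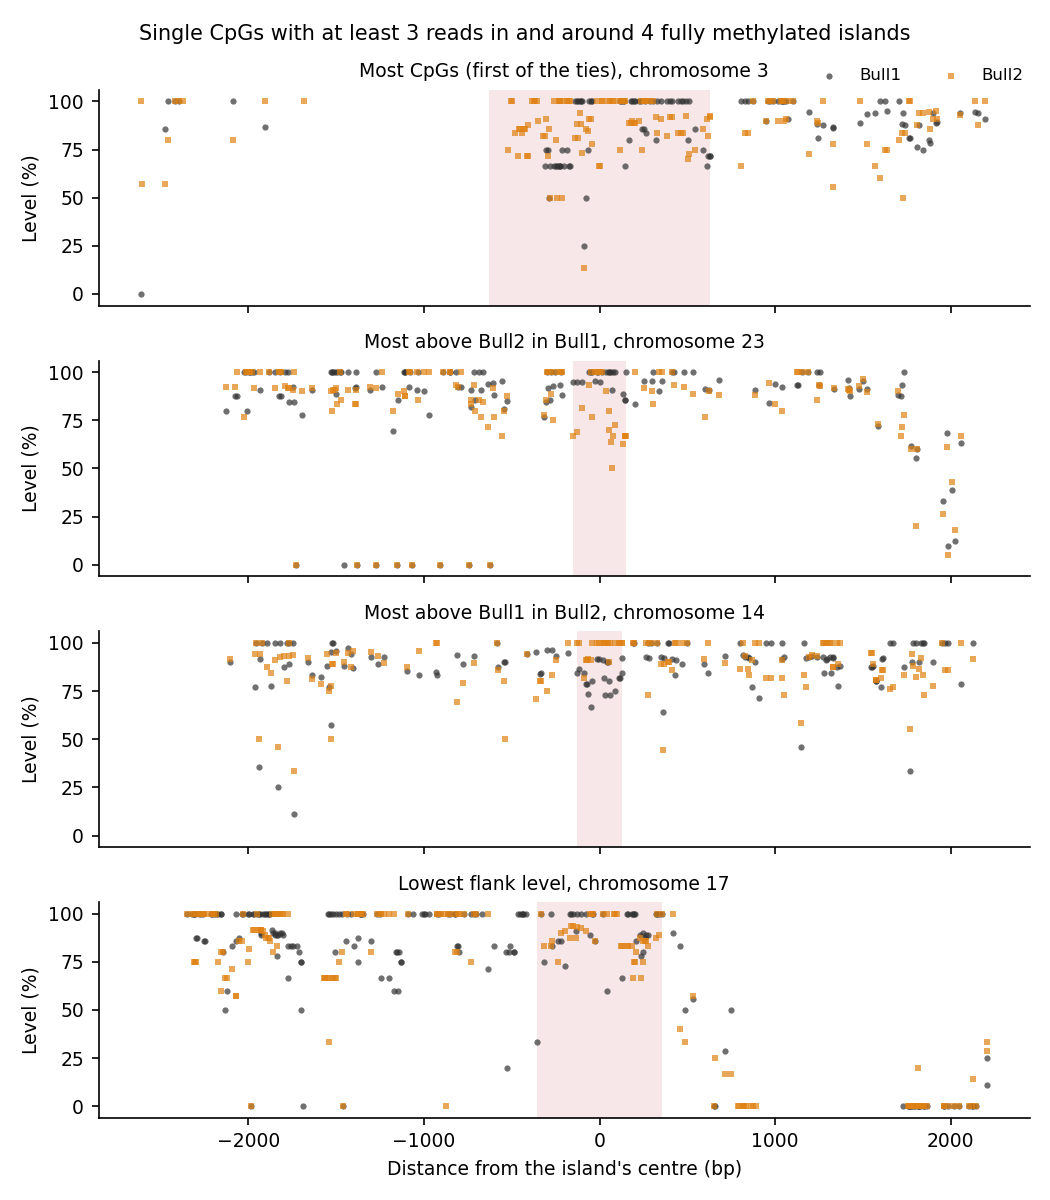
Methylation of single CpGs with at least 3 reads (vertical axes, %) by distance from the island's centre (horizontal axis, bp) in 4 fully methylated islands, with dark circles for Bull1 and orange squares for Bull2, and the island shaded. In the panel of chromosome 23 the island is at 97.3% in Bull1 and 80.3% in Bull2, and in that of chromosome 17 the far side lies at 12.2% and 10%.

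At the other end, 3 flanks exceeded 95% in both libraries by the choice of the highest. They belonged to islands on chromosome 25 from 42342490 to 42343025, chromosome 17 from 73737964 to 73738514 and chromosome 11 from 106920573 to 106921149. Their flanks were at 97.2%, 96.5% and 96.9% in Bull1 and at 95.8%, 96.0% and 95.2% in Bull2. The last of them is part of the second largest group of islands.

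Copies of similar sequence were looked for through the spacing of CpGs, since no genome of this build was at hand and no island sequence is printed. An island was counted when 8 consecutive gaps between its CpGs, read in either orientation, equalled those of another run of at least 20 CpGs. This held for 529 fully methylated islands (1.87%), 3234 intermediate islands (32.9%) and 5419 unmethylated islands (19.7%). With 12 gaps the shares were 0.780%, 24.5% and 11.2%. By this measure most fully methylated islands were unique in spacing. The commonest spacing of all, gaps of 4, 3, 13, 10, 7, 3, 3 and 18 bp, occurred in 1205 islands, of which 0 were fully methylated, 93 intermediate and 1112 unmethylated.

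Of the 529 islands, 240 shared a spacing with another fully methylated island, in 90 families of which 75 were pairs. The largest family had 33 members on 18 chromosomes. Its commonest spacing, gaps of 4, 11, 8, 8, 7, 20, 3 and 25 bp, was found in 9 fully methylated and 79 intermediate islands and in 0 unmethylated ones. The family was at 86.0% in Bull1 and 84.7% in Bull2, below the pooled level of all fully methylated islands. The intermediate copies had a median of 65.1% and 61.5%, from 23.1 to 91.9% in Bull1 and from 24.7 to 92.2% in Bull2. Copies of the same spacing thus lay on both sides of 80%. An example on chromosome 1 from 53840147 to 53840695 has 30 CpGs and was at 87.0% and 86.1%. The next families, of 9 members each, were at 84.9% and 85.4% and at 85.1% and 85.3%. Reads from near-identical copies may be placed at either copy, so levels of single members of these families are uncertain.

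The threshold of 80% fell within counting error for islands near it. Just inside were islands on chromosome 1 from 154899810 to 154900107 at 88.2% in Bull1 and 80% in Bull2 (75.4 to 84.1%), chromosome 2 from 134837383 to 134837843 at 80% and 86.0%, and chromosome 5 from 117769340 to 117769825 at 86.7% and 80%. Just outside were islands on chromosome 22 from 58075000 to 58075452 at 84.4% and 79.97%, chromosome 14 from 11403693 to 11403967 at 81.5% and 79.96%, and chromosome 26 from 50885180 to 50885920 at 89.2% and 79.96%. Runs of 100 or more CpGs, which the rule left out for their size, numbered 5309 whatever their reads. Of them 180 had at least 50 reads and a level of 80% or more in both libraries, with no limit on coverage. Their share is thus not comparable with that of the shorter islands.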

How the data were processed

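Sperm DNA of each bull was sequenced by WGBS with 125 bp paired-end reads from fragments of 200 to 300 bp. After quality filtering (FastQC 0.11.2 and Trim Galore 0.4.0 in the submitters' processing notes), the authors aligned reads to UMD3.1 with Bismark and Bowtie2 at default settings and discarded duplicate reads. The deposited files gave per CpG the count of methylated reads, the count of all reads and the fraction of methylated reads that the authors derived from them, with no normalization. Here only the counts were used. Positions are as listed. Whether they start from 0 or 1, and whether reads of both strands of a CpG were summed, is not stated in the sources used here.

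Islands, flanks, spacing patterns and Fisher tests were computed in Python 3.11.15 with numpy 2.4.6, pandas 2.3.3, numba 0.67.0 and scipy 1.17.1, and figures with matplotlib 3.10.9. Levels are summed methylated over summed reads, and calls had an adjusted p of at most 0.05. The Fisher test was tried on simulated flank counts drawn independently, which cannot show the effect of reads counted at several CpGs. With 1 library per bull the tests compare libraries, not animals. A read spanning several CpGs is counted at each, so p-values are too small. For the same reason exact Clopper-Pearson intervals of levels are too narrow, and all such intervals cover counting error only. The members, classes and rules were chosen with earlier results of these data known. Named islands were the 5 with most CpGs, the 5 densest (2 described), the 3 with the largest difference in each direction with at least 200 reads, the 3 with the lowest and the 3 with the highest flank level with at least 100 flank reads, 3 on each side of the threshold, and examples of the largest spacing families, with ties to the lower position. Alternatives were other gap limits, level, read and coverage limits, unweighted means, other flanks, thinned CpGs and other thresholds of the test. Gene annotation and sequence of UMD3.1 were not used here, so genes, imprinted regions and repeats are not named, and lists of imprinted, germ cell and housekeeping genes were not tested.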

Additional observations from a re-analysis of the deposited data

How the results depend on the processing

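No paired analysis was possible because there was 1 library per bull, and for the same reason no library could be left out. All differences kept their direction. With gaps of at most 30 bp there were 6905 fully methylated islands (18.6% of islands), and Bull1 was higher by 2.28 points in islands and 2.90 in flanks. With gaps of at most 100 bp there were 72461 (65.6%), with 3.02 and 3.79 points. At 90% or more there were 8219 (12.5%), with 1.14 and 3.33 points, and at 75% or more the share was 46.4% and the island difference 2.72 points. The higher threshold leaves less room for a difference by construction. With at least 200 reads there were 16207 (41.5%), with 2.64 and 3.33 points. With mean coverage under 50 the share was 44.3%. Unweighted means gave an island difference of 2.36 points. The flank difference was 3.36 with CpGs of 5 to 100 reads and 3.34 with each CpG counted once. The causes were not tested.

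Against 11383 flanks called, 7106 (25.3%) had an adjusted p of at most 0.01, as did 19.4% of all flanks. Tested against the odds ratio of all flanks, 1.10, 7249 (25.8%) were called, as were 23.6% of all flanks. Of these 7249 flanks, 6847 lay above that ratio, and the direction was not counted for the other classes. The ratio was pooled over reads of all flanks, including the deeper flanks of the other classes. It was not fitted to flanks of fully methylated islands, so nothing is read from the direction. With CpGs at least 300 bp apart 39 were called and with 1 CpG per flank 0, settings that hold fewer reads. Against 5277 islands called, 2879 (10.2%, and 9.37% of all islands) were called at 0.01, 5012 (17.8%, and 15.1% of all islands) against the odds ratio of all islands and 0 with 1 CpG per island. The spaced flanks and the single count of flank CpGs were chosen after seeing the data. The share of islands with a shared spacing was 0.780% with 12 gaps and 0.493% with 15. For the named islands 15 alternative values had the same direction. Of them 6 moved beyond counting error, which was taken too narrow because reads are counted at each CpG they cover. Of the islands chosen for their difference, 3 held no run of 20 CpGs with gaps of at most 30 bp. Depth limits single islands, since the median island rests on 245 and 256 reads that are not independent.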

Other observations

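Runs that the rule left out gave these values. On X, 1494 runs of 20 to 99 CpGs had enough reads and a mean coverage under 100, and 192 of them (12.9%) were at 80% or more in both libraries, with pooled levels of 90.9% in Bull1 and 88.5% in Bull2 at 9.22 and 9.24 reads per CpG. On X 64.4% of the runs were unmethylated. Among the 2573 autosomal runs with a mean of 100 or more reads per CpG, 10 (0.389%) were at 80% or more in both libraries, with pooled levels of 87.2% and 86.2%, and 42.8% were unmethylated.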
